A study of Mus musculus with 13 samples.

Results

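The transcripts of 10 genes of bone morphogenetic protein (BMP) signaling were followed in mouse embryonic stem (ES) cells with and without CTCF S224E, a form of the chromatin protein CTCF in which a serine is replaced by glutamate to mimic phosphorylation. The genes were chosen by symbol as the ligands Bmp2, Bmp4 and Bmp7, the inhibitors of differentiation Id1, Id2 and Id3, the inhibitory Smads Smad6 and Smad7, and the homeobox genes Msx1 and Msx2. All 10 were found among the 24421 genes counted, each under the same RefSeq transcript in the tables of replicates 1 and 2, and all 10 averaged 1 CPM or more (CPM are read counts brought to a common library size, here with TMM factors). The cells were F1-2.1, a female ES cell line from a CAST/Ei x 129/Sv/Jae cross, and all 4 RNA libraries came from clone A2, which carries a Tet-on CTCF S224E transgene and keeps its endogenous CTCF. The +dox group, S224E_plus_dox, received 1 μg/mL doxycycline (dox) for 6 days, and the −dox group, S224E_minus_dox, had the same transgene and no dox. Each group had 2 libraries of polyadenylated RNA, described as biological replicates, with between 22899107 and 30206085 counted reads per library. RNA of cells given dox without an S224E transgene, or with a wild type CTCF transgene, was not analysed here. The vector also makes EGFP, a fluorescent protein, with dox. So the S224E change, added CTCF of any form, EGFP and dox itself cannot be told apart as the source of a difference.

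BMPs are secreted ligands that bind pairs of serine/threonine kinase receptors, which phosphorylate SMAD1, SMAD5 and SMAD9. These join SMAD4 in the nucleus and turn on target genes, among which Id1, Id2 and Id3 respond directly in many cell types. Id proteins lack a DNA-binding domain and hold E proteins, the partners of tissue-specific helix-loop-helix factors, in inactive pairs. Smad6 and Smad7 are also induced by the signal and block the receptors, which closes a negative feedback loop. In mouse ES cells grown with LIF and serum, BMP acting through Id genes is known to restrain neural differentiation, while in the gastrulating embryo BMP4 is needed for mesoderm.

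Promoter sequences from RefSeq (build GRCm38.p6) were matched for 6 of the 10 genes, Bmp4, Id2, Id3, Smad6, Msx1 and Msx2. They were searched, from 250 bases before to 50 bases after the annotated start, for a pair of textbook SMAD motifs that read the same on both strands and of which neither contains the other. The GC-rich element GGCGCC was in 11.9% of 32851 promoters and, among the 6, in that of Id2, where it began 231 bases before the start. The palindrome GTCTAGAC was in 0.213% of promoters and, among the 6, in that of Smad6, where it began 4 bases before the start. Both stretches are shown because they are the places in these windows where a target gene of the pathway carries such letters, which are in capitals. The first is the 250 bases before the start of Id2 (chr12:25096093-25096342, minus strand) and the second the 30 bases around the start of Smad6 (chr9:64022045-64022074, minus strand).
Id2: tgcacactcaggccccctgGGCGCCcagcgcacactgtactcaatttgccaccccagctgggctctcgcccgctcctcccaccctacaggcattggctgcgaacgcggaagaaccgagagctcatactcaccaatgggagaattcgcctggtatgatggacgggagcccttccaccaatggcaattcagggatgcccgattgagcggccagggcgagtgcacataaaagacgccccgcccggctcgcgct
Smad6: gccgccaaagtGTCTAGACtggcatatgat
These matches describe letters and do not show binding.

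The study asked which genes are expressed differently when CTCF S224E is induced, and the same comparison was made here for the BMP genes. None of the 10 genes passed edgeR's quasi-likelihood test at an adjusted p-value under 0.01 (0 of 10, where 0.599% of all 20044 genes tested passed). DESeq2, the tool named in the study's methods, called 1 of 10, Bmp7, which was lower with dox, where it called 2.71% of the genes to which it gave an adjusted p-value. At an unadjusted p-value under 0.05, edgeR listed 5 of 10 (Bmp2, Bmp7, Id2, Smad7 and Msx2), against 17.8% of all genes tested, and DESeq2 listed 4 of 10, against 13.0%. In 6 of 10 genes the +dox libraries did not overlap the −dox libraries, 4 being lower with dox (Bmp2, Bmp7, Id2 and Msx1) and 2 higher (Smad7 and Msx2), but 53.8% of the 13911 genes averaging 1 CPM or more were separated in this way. The median log2 fold change of the 10 genes was 0.03, and that of the 13911 genes was -0.0011. Leaving out +dox replicate 1 brought the count called by edgeR to 3 (Bmp2, Bmp7 and Id2), while the share called among all genes tested went up to 5.07%. Leaving out +dox replicate 2 also brought it to 3 (Bmp7, Smad7 and Msx2), with 4.43% of all genes called. Without either −dox library the count stayed at 0 and 0% of all genes were called. In such a fit the remaining library of a group is assumed to vary like the pair of the other group.

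**Figure D1:**
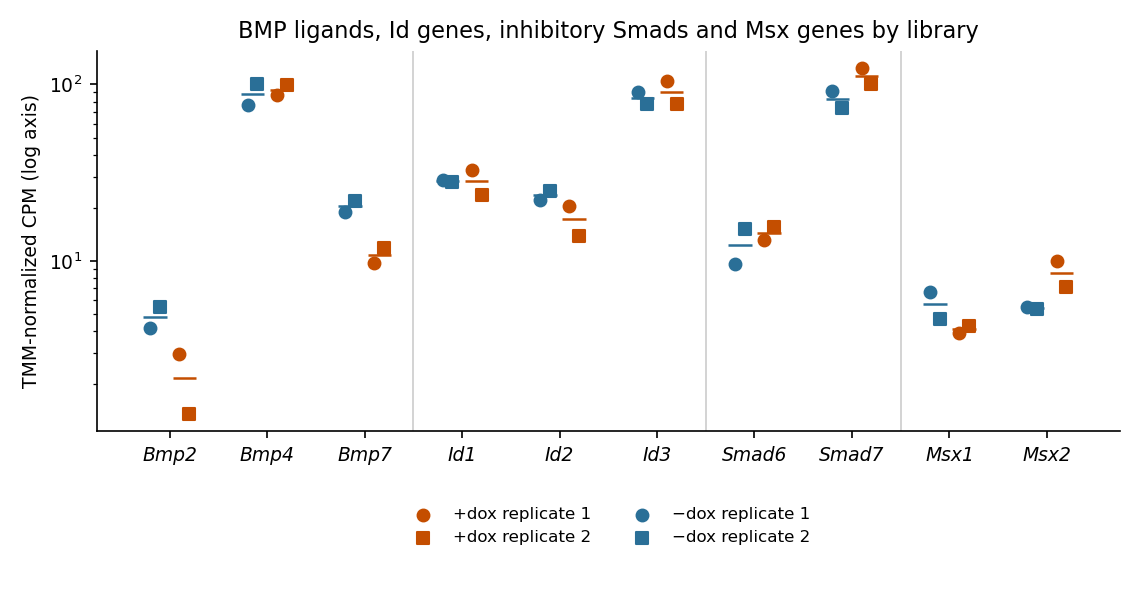
Level of each of the 10 genes in each library, in TMM-normalized CPM on a log axis, with −dox libraries in blue, +dox libraries in orange, circles for replicate 1, squares for replicate 2 and bars for the mean of each group. Both +dox points of Bmp7 (9.73 and 11.8 CPM) lie below both −dox points (19.0 and 21.9 CPM), whereas the points of Bmp4, Id1, Id3 and Smad6 overlap.

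Bmp4 made up most of the RNA of the 3 ligands among the 10 genes. Counted per kilobase of exon, so that genes of unequal length can be compared, the level of Bmp4 was 42.3 and 48.0 CPM per kb with dox and 37.3 and 48.9 CPM per kb without. That of Bmp7 was 2.66 and 3.23 CPM per kb with dox and 5.19 and 5.99 CPM per kb without. That of Bmp2 was 0.84 and 0.38 CPM per kb with dox and 1.17 and 1.53 CPM per kb without. Bmp4 thus held 92.4% and 93.0% of the summed level per kb of the 3 ligands with dox, and 85.4% and 86.7% without. The share of Bmp7 was 5.81% and 6.25% with dox and 11.9% and 10.6% without. The groups did not overlap, but the shares restate the levels above and are no separate result.

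Bmp4, the ligand whose loss stops mesoderm formation in the embryo, is on chromosome 14 (mm9, positions 47003200 to 47010344, minus strand). It had 1954 and 2252 reads with dox and 2338 and 2520 without, or 86.8 and 98.6 CPM with dox and 76.5 and 100.4 CPM without. The lowest and the highest of the 4 values were both −dox libraries, so the groups overlapped. Its log2 fold change was 0.07 (standard error 0.13, 95% interval -0.22 to 0.35), with adjusted p-values of 0.824 (edgeR) and 0.873 (DESeq2). It was 0.18 in replicate 1 and -0.03 in replicate 2. Such ratios, here and below, join libraries by replicate number, which no source ties to a shared day or batch. In the annotation of mm9, exons of Bmp4 share up to 89 bases with Gm15217 on the opposite strand, and whether the counting used the strand is not stated, so those reads are uncertain. No exon of the other 9 genes shares bases with another annotated gene.

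Bmp7, a ligand that forms dimers with BMP2 and BMP4 and is needed for kidney and eye development, lies on chromosome 2 from 172693513 to 172765822. It had 219 and 270 reads with dox and 580 and 550 without, which gave 9.73 and 11.8 CPM with dox and 19.0 and 21.9 CPM without. Both +dox libraries were below both −dox libraries, by more than the spread within either group. It averaged 10.8 ± 1.48 CPM with dox against 20.5 ± 2.07 CPM (SD, n = 2 for each), so that the level was 1.90-fold lower with dox. For Bmp7 the log2 fold change was -0.92 (standard error 0.18, 95% interval -1.32 to -0.53), and the replicates gave -0.96 and -0.89. Its adjusted p-values were 0.0221 (edgeR), over the threshold of 0.01, and 0.00157 (DESeq2), under it. That of edgeR was 0.00412 without +dox replicate 1 and 4.01e-05 without +dox replicate 2, but 0.550 and 0.670 without −dox replicates 1 and 2, where no gene of all those tested was called (1753 and 1450 at an unadjusted p-value under 0.05).

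Bmp2, a ligand closely related to BMP4 with roles in heart and bone, lies on chromosome 2 from 133377895 to 133388632. It was the lowest of the 10 genes per kb. Bmp2 had 67 and 31 reads with dox and 127 and 137 without, or 2.98 and 1.36 CPM with dox and 4.16 and 5.46 CPM without. Both +dox values were below both −dox values, and the +dox pair was the more spread out of the 2 pairs. The log2 fold change was -1.15 (standard error 0.34, 95% interval -1.90 to -0.40), -0.47 in replicate 1 and -1.95 in replicate 2. Neither tool called it, with adjusted p-values of 0.0987 (edgeR) and 0.135 (DESeq2). Without +dox replicate 1, in which it was higher than in +dox replicate 2, the log2 fold change was -1.82 with an adjusted p-value of 3.36e-05 from edgeR. It was -0.69 without +dox replicate 2.

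Among the Id genes, Id3 had the highest level per kb of all 10 genes. On that scale Id3 ran from 81.5 to 110.2, Id1 from 25.4 to 35.3 and Id2 from 11.0 to 19.7 CPM per kb over the 4 libraries, and the ranges did not overlap. Id3 made up 68.1% and 69.1% of their summed level per kb with dox and 66.5% and 62.0% without. Id1 made up between 21.4% and 23.0% in every library. Id2 made up 10.0% and 9.30% with dox and 12.1% and 15.0% without. These groups did not overlap, but the shares restate the levels of the same genes and are no separate result.

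**Figure D2:**
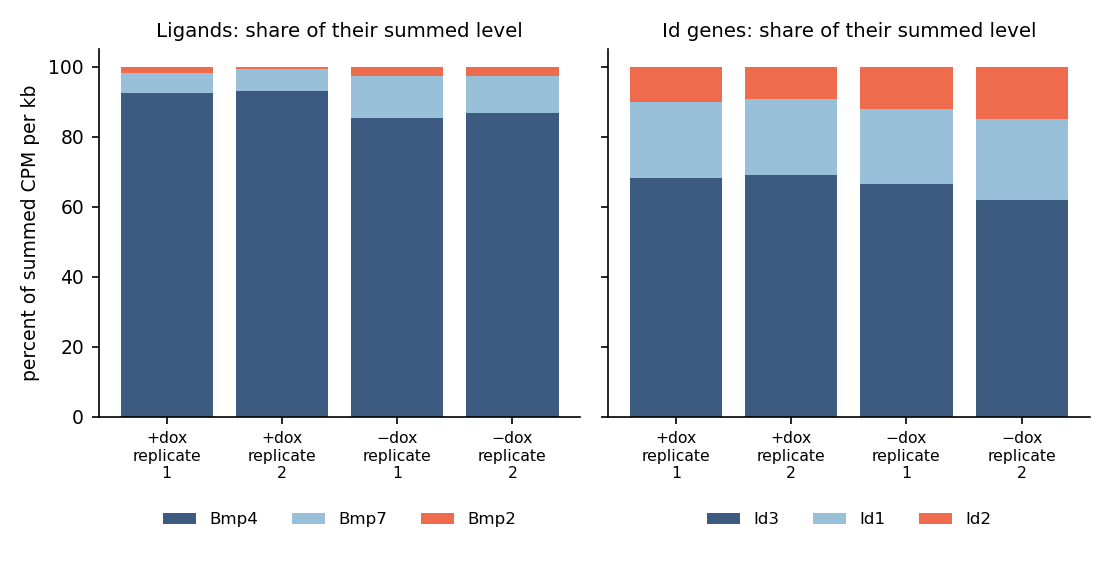
Share of each ligand gene (left) and of each Id gene (right) in the summed CPM per kb of its class among the 10 genes. Stacked bars are in percent, with 1 bar for each library. Bmp4 and Id3 fill most of every bar, and the slices of Bmp7 and Id2 are narrower in both +dox libraries than in both −dox libraries.

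Id1, the Id gene often read as a reporter of BMP signaling, lies on chromosome 2 from 152561987 to 152563146. It had 739 and 540 reads with dox and 875 and 705 without, or 32.8 and 23.6 CPM with dox and 28.6 and 28.1 CPM without. The +dox libraries lay on either side of the −dox libraries. The log2 fold change was -0.0072 (standard error 0.17), with a 95% interval from -0.37 to 0.35, or from 0.775 to 1.28 times the −dox level. edgeR gave an adjusted p-value of 0.984 and DESeq2 0.999. Replicate 1 gave 0.20 and replicate 2 gave -0.25.

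Id3 lies on chromosome 4 from 135699737 to 135701307 and, like Id1, is a direct target of BMP signaling that is needed for normal blood vessels in the brain when Id1 is lost. It had 2352 and 1764 reads with dox and 2771 and 1938 without, or 104.5 and 77.2 CPM with dox and 90.7 and 77.2 CPM without. The values of replicate 2 were nearly equal and both values of replicate 1 were higher, so the groups overlapped. The log2 fold change was 0.11 (standard error 0.14, 95% interval -0.19 to 0.42), with adjusted p-values of 0.720 (edgeR) and 0.776 (DESeq2).

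Id2, which also binds members of the retinoblastoma family, lies on chromosome 12 from 25778664 to 25780957, and its promoter is the one above with the GC-rich element. It had 463 and 317 reads with dox and 671 and 626 without, or 20.6 and 13.9 CPM with dox and 22.0 and 24.9 CPM without. Both +dox libraries were below both −dox libraries, although replicate 1 with dox was close to the lower −dox value. For Id2 the log2 fold change was -0.45 (standard error 0.19, 95% interval -0.86 to -0.03), with adjusted p-values of 0.248 (edgeR) and 0.274 (DESeq2). It was -0.09 in replicate 1 and -0.84 in replicate 2. Without +dox replicate 1 it was -0.76 with an adjusted p-value of 0.00411 from edgeR, and without +dox replicate 2 it was -0.19 with 0.718.

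**Figure D3:**
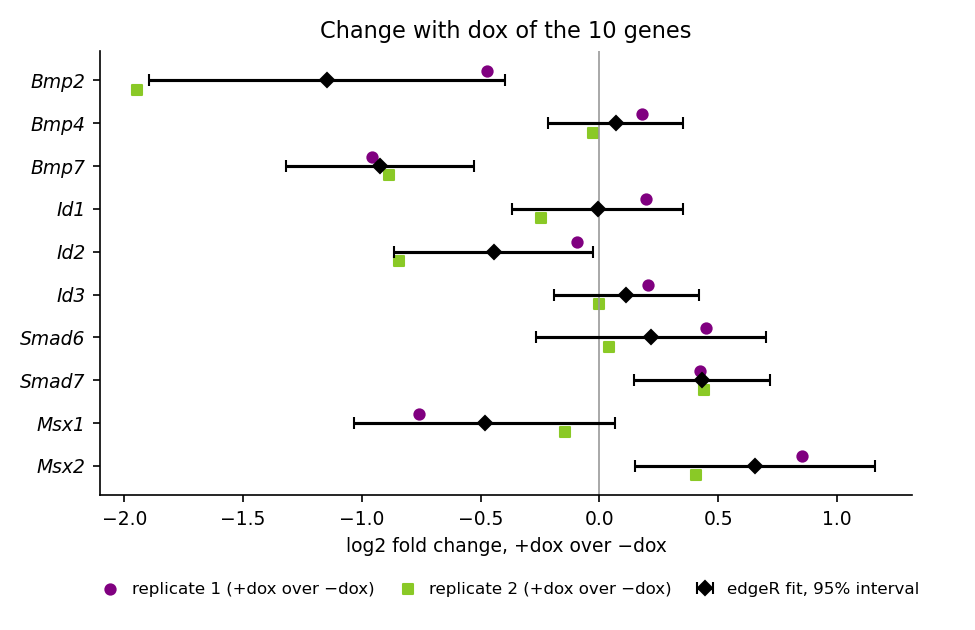
Log2 fold change of each gene, +dox over −dox. Diamonds and bars are the edgeR estimate and its 95% interval over 4 libraries, circles the ratio within replicate 1 and squares that within replicate 2. The ratios of Bmp7 and Smad7 are nearly the same in both replicates. Those of Bmp2 (-0.47 and -1.95) and Id2 (-0.09 and -0.84) lie far apart. All these ratios depend on joining libraries by replicate number, which no source ties to a shared day or batch.

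Smad6, which blocks BMP receptors in particular and is best known for its role in heart valves and vessels, lies on chromosome 9 from 63800883 to 63869866, and its start carries the SMAD palindrome given above. It had 296 and 355 reads with dox and 294 and 379 without, or 13.1 and 15.5 CPM with dox and 9.63 and 15.1 CPM without. The lowest value was −dox replicate 1, and the other 3 lay close together. For Smad6 the log2 fold change was 0.22 (standard error 0.22, 95% interval -0.27 to 0.70), with adjusted p-values of 0.680 (edgeR) and 0.729 (DESeq2).

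Smad7, which blocks receptors of both the BMP and the TGF-β and Nodal branches, lies on chromosome 18 from 75527019 to 75555588. It had 2788 and 2287 reads with dox and 2816 and 1853 without, or 123.8 and 100.2 CPM with dox and 92.2 and 73.8 CPM without. Both +dox libraries were above both −dox libraries. The level was 1.35-fold higher with dox (112.0 ± 16.8 against 83.0 ± 13.0 CPM, SD, n = 2 each). The log2 fold change was 0.43 in the fit (standard error 0.13, 95% interval 0.14 to 0.72), 0.43 in replicate 1 and 0.44 in replicate 2. The closeness of the values by replicate depends on joining libraries that are not known to be pairs. Both tools left Smad7 above the threshold, edgeR with an adjusted p-value of 0.104 and DESeq2 with 0.0683. Without +dox replicate 2 edgeR gave it an adjusted p-value of 5.04e-04 at a log2 fold change of 0.58, and without +dox replicate 1 one of 0.238 at 0.27. Per kb of exon, Smad7 had a higher level than Smad6 in each library, by 6.30-fold and 4.31-fold with dox and by 6.40-fold and 3.27-fold without.

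Msx1 and Msx2 encode homeobox repressors induced by BMP in neural crest, limb and tooth. Msx1 (chromosome 5, 38211730 to 38215824) had 88 and 97 reads with dox and 204 and 118 without, or 3.91 and 4.25 CPM with dox and 6.68 and 4.70 CPM without. The +dox values lay just below the lower −dox value. Its log2 fold change was -0.48 (standard error 0.25, 95% interval -1.03 to 0.07), with adjusted p-values of 0.356 (edgeR) and 0.509 (DESeq2). It was -0.20 without −dox replicate 1 and -0.71 without −dox replicate 2. Msx2 (chromosome 13, 53562250 to 53568149) had 225 and 162 reads with dox and 168 and 134 without, or 9.99 and 7.09 CPM with dox and 5.50 and 5.34 CPM without. Both +dox values were above both −dox values, and the −dox pair was tight. Its log2 fold change was 0.66 (standard error 0.23, 95% interval 0.15 to 1.16), with adjusted p-values of 0.153 (edgeR) and 0.204 (DESeq2). Without +dox replicate 2 it was 0.88 with an adjusted p-value of 0.00939 from edgeR, and without +dox replicate 1 it was 0.39 with 0.454. The level of Msx2 per kb was 2.28 and 1.49 times that of Msx1 with dox and 0.74 and 1.01 times without, so the order of the pair was not the same in all libraries.

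Ranked by mean level per kb over the 4 libraries, the genes ran from Id3 (92.2 CPM per kb) over Bmp4 (44.1), Id1 (30.4), Smad7 (22.0), Id2 (16.1), Smad6 (4.50), Bmp7 (4.27), Msx2 (3.24) and Msx1 (2.53) to Bmp2 (0.98 CPM per kb). The ranges over the 4 libraries did not overlap between Id3 and Bmp4, Bmp4 and Id1, Id2 and Smad6, or Msx1 and Bmp2, and they overlapped between the other neighbours. Among the latter, Id1 was still above Smad7 in 4 of 4 libraries, Smad7 above Id2 in 3 and Msx2 above Msx1 in 3. The place of Bmp7 in this order was not the same in the groups. With dox it was below both Smad6 (4.43 and 5.24 CPM per kb) and Msx2 (4.63 and 3.29 CPM per kb) in each library, at 2.66 and 3.23 CPM per kb. Without dox it was above both in each library, at 5.19 and 5.99 CPM per kb against 3.25 and 5.09 for Smad6 and 2.55 and 2.47 for Msx2.

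The libraries hold RNA of mixed cultures, since the cells were grown on irradiated fibroblast feeders, and with bulk RNA fewer cells of a type and less RNA per cell cannot be told apart. The 8 ES cell markers listed, led by Pou5f1 and Esrrb, were present in every library, with a summed level of 5232 and 6070 CPM with dox and 4732 and 5220 CPM without, and edgeR called 0 of 8 (3 at an unadjusted p-value under 0.05, and 0 called by DESeq2). The 14 fibroblast markers, led by Col5a1 and Col1a1, summed to 1171 CPM in +dox replicate 1, 526 CPM in +dox replicate 2, and 449 and 467 CPM in the −dox libraries. All 14 were higher in +dox replicate 1 than in +dox replicate 2, and none was at 0 in any library. Between the groups edgeR called 0 of 14 (10 at an unadjusted p-value under 0.05, and 0 called by DESeq2). Of all genes tested, edgeR called 0.599% and gave 17.8% an unadjusted p-value under 0.05. Of the 10 BMP genes, 6 were higher in +dox replicate 1 than in +dox replicate 2 (Bmp2, Id1, Id2, Id3, Smad7 and Msx2) and 4 lower. The share of all genes higher in +dox replicate 1 was not counted. Id1, Id3, Smad7 and Msx2 had their highest value of the 4 libraries in +dox replicate 1. Without dox these genes were also higher in replicate 1, as Id3 (90.7 and 77.2 CPM) and Smad7 (92.2 and 73.8 CPM), whereas Bmp2 and Id2 were lower in it. The part of the fibroblast signal in these values was not tested.

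Part of the markers of early differentiation were lower with dox. The 9 primitive streak markers, led by T and Eomes, summed to 39.0 and 38.9 CPM with dox and 158.3 and 182.9 CPM without. edgeR called 5 of 9 lower and 0 higher, and DESeq2 called 6 lower and 0 higher. Of all genes, edgeR called 0.599% of those tested and DESeq2 2.71% of those to which it gave an adjusted p-value. The marker lists were chosen with earlier results of these data known. The 8 markers of extraembryonic endoderm, led by Dab2 and Gata4, summed to 39.4 and 43.2 CPM with dox and 59.7 and 67.6 CPM without. Of the 7 with any count edgeR called 3 lower and 0 higher, and DESeq2 called 4 lower and 0 higher. The members of this list went both ways, and its leading gene Dab2, which was not called, had 27.0 and 30.0 CPM with dox against 25.3 and 23.7 CPM without. Ttr was at 0 in all 4 libraries and Afp in +dox replicate 1. Among the BMP genes, Bmp2, Bmp7, Id2 and Msx1 were also lower in both +dox libraries than in both −dox libraries. Smad7 and Msx2 were higher in both. Such a separation, in either direction, was found in 53.8% of the 13911 genes averaging 1 CPM or more. The part of these cell types in the values of the BMP genes was not tested. Ctcf, the gene of which the transgene is a copy, had 327 and 329 CPM with dox and 295 and 304 CPM without (log2 fold change 0.13, adjusted p-value 0.475 from edgeR). The paper did not list Ctcf as changed either. It did report the glutamate codon of S224E in part of the RNA reads over that position.

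**Figure D4:**
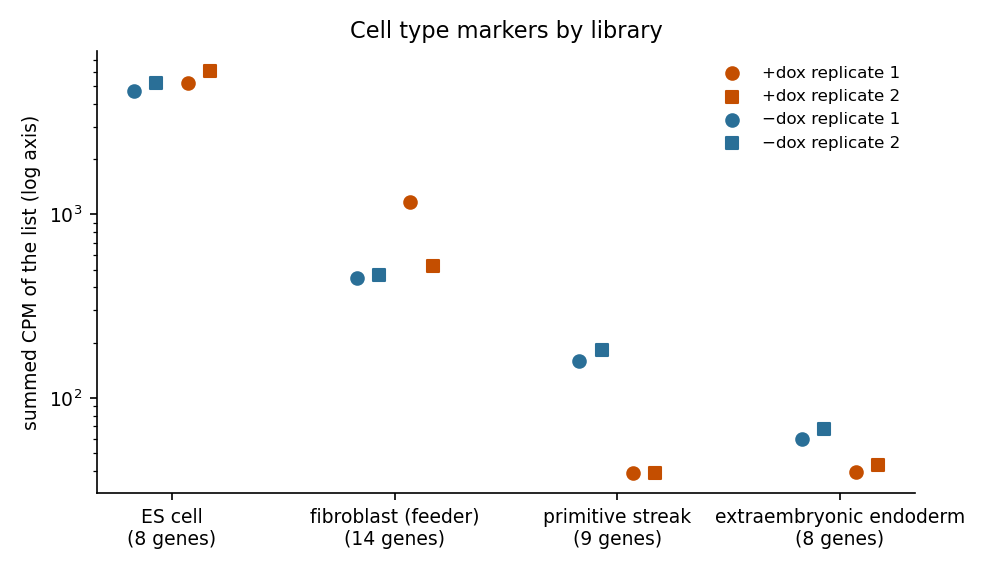
Summed CPM of the markers of ES cells, fibroblasts, primitive streak and extraembryonic endoderm in each library, on a log axis. +dox replicate 1 stands above the other 3 libraries for fibroblast markers (1171 against 449 to 526 CPM), and both +dox libraries lie below both −dox libraries for the primitive streak and endoderm lists.

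A list of 62 other genes of the pathway was examined in the same fit. edgeR called 1 of them, Cer1, which was lower with dox, and DESeq2 called 4, Cer1 and Chrd lower and Gdf3 and Eng higher, against 0.599% and 2.71% of all genes. Of the 50 that averaged 1 CPM or more, 33 (66.0%) had a fitted log2 fold change below 0, against 50.2% of all 13911 such genes, and their median was -0.13. These shares describe the list and were not tested.

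Ligands and receptors of the list gave few calls. Of 12 further ligands, 5 averaged 1 CPM or more, and Gdf3, a TGF-β family ligand of pluripotent cells, had the highest level per kb of the whole list (112.5 CPM per kb). It had 267.6 and 289.8 CPM with dox and 199.4 and 190.3 CPM without. Both +dox libraries were above both −dox libraries, with a log2 fold change of 0.52 (standard error 0.09) and adjusted p-values of 0.0132 (edgeR) and 1.05e-04 (DESeq2). All 7 receptors, from Bmpr1a and Bmpr2 to Acvr2b, had fitted values below 0, with a median of -0.31, but 0 of 7 were called by either tool, and 2 had an unadjusted p-value under 0.05 in edgeR. The coreceptor Eng (endoglin), which presents BMP9 and related ligands on endothelial cells, had 142.3 and 155.1 CPM with dox and 110.5 and 112.4 CPM without. These groups did not overlap, and the log2 fold change was 0.42 (standard error 0.10) with adjusted p-values of 0.0401 (edgeR) and 0.00795 (DESeq2). Smad1, Smad4, Smad5 and Smad9, which carry the signal to the nucleus, had a median of -0.14, and 0 of 4 were called by either tool or had an unadjusted p-value under 0.05 in edgeR.

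Extracellular antagonists held the only gene called by both tools. Cer1 (chromosome 4, 82527655 to 82531055), which encodes Cerberus-like, a secreted antagonist of Nodal and BMP, had 3 and 2 reads with dox and 158 and 141 without, or 0.13 and 0.09 CPM with dox and 5.17 and 5.62 CPM without. The log2 fold change was -5.55 (standard error 0.41, 95% interval -6.44 to -4.66) with adjusted p-values of 3.53e-05 (edgeR) and 3.24e-10 (DESeq2). This change rests on few reads in the +dox libraries. The edgeR call was lost without either −dox library and with deviances adjusted for small counts, as was that of every other gene. Chrd (chordin), which traps BMP2, BMP4 and BMP7 outside the cell, had 5.33 and 4.25 CPM with dox and 9.49 and 10.8 CPM without. Both +dox values were less than the lower −dox value, and the log2 fold change was -1.08 (standard error 0.22) with adjusted p-values of 0.0256 (edgeR) and 0.00818 (DESeq2). Nog (noggin), named after its values were seen because it binds the same ligands, had 1.78 and 1.18 CPM with dox and 3.60 and 3.27 CPM without, with adjusted p-values of 0.0575 (edgeR) and 0.123 (DESeq2). Grem1, an antagonist also made by fibroblasts and also named after its values were seen, had 79.3 CPM in +dox replicate 1 and between 22.8 and 29.2 CPM in the other 3 libraries, a pattern like that of the fibroblast markers.

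**Figure D5:**
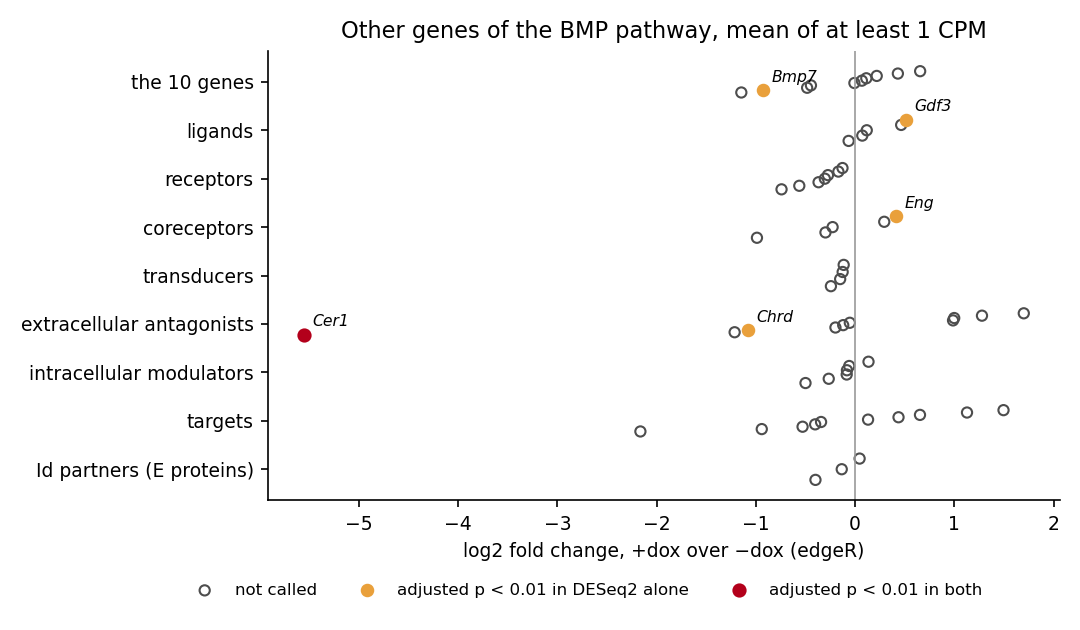
Log2 fold change (+dox over −dox, edgeR) of the 10 genes and of the other pathway genes averaging 1 CPM or more, 1 point per gene, in rows by role. Cer1, at -5.55, is the single gene called by both tools (red), Bmp7, Chrd, Gdf3 and Eng were called by DESeq2 alone (orange), and the open points of receptors and transducers all lie to the left of 0.

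Inside the cell, 0 of 6 modulators, 0 of 11 further targets and 0 of 3 E proteins were called by either tool. At an unadjusted p-value under 0.05, edgeR listed 2, 6 and 1 of them, against 17.8% of all genes. The 6 targets listed went both ways, and these shares were not tested. Ski, which represses SMAD complexes, had 212.7 and 185.1 CPM with dox and 193.3 and 169.0 CPM without, and its groups overlapped. Tcf3, the E protein gene with the highest level per kb (104.1 CPM per kb), had 362.9 and 334.8 CPM with dox and 359.1 and 317.0 CPM without, a log2 fold change of 0.05 (standard error 0.09). Dusp9, a phosphatase of ERK that BMP induces in ES cells, had 147.6 and 197.0 CPM with dox and 193.5 and 243.7 CPM without. Its groups overlapped, with an adjusted p-value of 0.210 from edgeR.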

How the data were processed

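RNA of 2 +dox and 2 −dox libraries was analysed, grouped by the sample labels. Per the paper's methods and the labels, the authors used cutadapt for trimming, TopHat2 for alignment (mm9) and HOMER for counting unique reads on exons after taking out PCR duplicates, and deposited raw counts per gene, not normalized. Versions and the use of strand are not given in the sources used here. The ChIP-seq and Hi-C samples were not used here.

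Both tables were merged on the symbol, and the 20044 genes with at least 1 count in 1 library were tested across all genes with edgeR 4.0.16 (R 4.3.3), as TMM scaling and the quasi-likelihood test in its legacy form, without a replicate block. The Benjamini-Hochberg threshold was 0.01, as in the study. DESeq2 1.42.0 was the alternative, with independent filtering at 0.1. Standard errors came from the test statistic, and ratios within a replicate used a prior count of 2. CPM per kb divides by the counted exon length in the tables. With 2 libraries against 2, an exact permutation test cannot give a two-sided p-value under 0.333, so none was used. Replicates differed by more than counting noise (chi-square per degree of freedom of 19.2 with dox and 13.2 without, over 13911 genes). The fits were tested on simulated data, in which both tools missed most changes near the size fitted for Smad7, Id2 and Msx1. A missing call therefore does not show that such a gene was unchanged.

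The 10 genes and all lists were chosen with earlier results of these data known. Named genes are the 10, listed pathway genes called by either tool, the 5 of that list highest per kb, and the top 2 of each marker list. Others are marked. Alternatives were other tests, scalings, filters, a threshold of 0.05, a replicate block and leaving out each library.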

Additional observations from a re-analysis of the deposited data

How the results depend on the processing

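The count of all genes called, 120 by edgeR, was 375 with DESeq2, 457 with edgeR's likelihood ratio test, 11 with filterByExpr, 573 at a threshold of 0.05 and 0 with deviances adjusted for small counts (3254 at an unadjusted p-value under 0.05), and it ran from 0 to 992 when 1 library was left out. Among the 10 BMP genes the count of 0 was 1 with DESeq2, with the likelihood ratio test and at 0.05 (Bmp7 each time), and ran from 0 to 3 when 1 library was left out. Among the 62 pathway genes the count of 1 was 4 with DESeq2 and with the likelihood ratio test, 5 at 0.05 and 0 with adjusted deviances (16 at an unadjusted p-value under 0.05), and ran from 0 to 11 when 1 library was left out. Other scalings and no filter on low counts left all 3 counts within 1.5 times. The libraries share replicate numbers, which no source ties to a shared day or batch, and with 2 pairs the correlation of 0.196 between deviations of same-numbered libraries does not settle whether they are pairs. A fit with the replicate block called 786 genes, 10 of the pathway genes and 2 of the 10 (Bmp7, adjusted p-value 9.81e-04, and Smad7, 0.0076). Log2 fold changes kept their sign except when 1 library was left out, where Bmp4 ran from -0.12 to 0.28, Id1 from -0.26 to 0.21, Id3 from -0.12 to 0.31 and Smad6 from -0.074 to 0.57. The causes of these differences were not tested. Depth limits Bmp2 (31 to 137 reads) and Msx1 (88 to 204 reads) most.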
